A study of Mus musculus with 7 samples.

Results

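Il12a, Il12b, Il23a, Il27 and Ebi3 encode the subunits of the IL-12 and IL-23 cytokine family, and their RNA levels were followed in macrophages sorted from the mouse colonic lamina propria. These 5 genes were taken by symbol, and each was represented by a single probe set among the 19938 genes measured. The cytokines of this family are heterodimers that share chains. IL-12 joins p35 (Il12a) to p40 (Il12b) and drives interferon-gamma production by T cells and innate lymphoid cells (ILC), IL-23 joins p19 (Il23a) to the same p40 and sustains IL-17 and IL-22 producing cells, and IL-27 joins p28 (Il27) to EBI3. Microbial sensing induces Il12b and Il23a in macrophages and dendritic cells, and IL-10 acting through its receptor, of which Il10ra encodes the ligand-binding chain, is a known brake on both genes.

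The study holds 7 Affymetrix arrays of cells from C57BL/6 mice aged 6 weeks. Il10ra_mKO (2 arrays) stands for CX3CR1cre:IL10Raflox/flox mice, in which Cre recombinase expressed from the Cx3cr1 locus removes Il10ra, and its control WT_resident (3 arrays) for CX3CR1gfp/+ mice, the cells of both groups being sorted as resident macrophages. Il10_KO (1 array) stands for IL10-/- CX3CR1gfp/+ mice and its control WT_CX3CR1hi (1 array) for CX3CR1gfp/+ mice, the cells of both being sorted as CX3CR1hi macrophages. Controls carry GFP in place of Cre at Cx3cr1, so the Cre allele and the loss of Il10ra cannot be told apart. Nothing in the labels ties the arrays to separate mice, and every p-value below therefore reflects the spread among these arrays alone, part of which may be technical. In such bulk RNA, a change in the number of cells of a type and a change in RNA per cell cannot be told apart.

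Il10ra stood at log2 8.05 and 7.04 in the Il10ra_mKO arrays, against 10.56, 10.76 and 11.12 in WT_resident. Both mutant arrays lay below every control, and the difference was -3.27 ± 0.38 (SE; limma adjusted p = 0.243 over all genes). Il10rb, the partner chain of the receptor, was at 10.68 and 11.26 in Il10ra_mKO, against 11.02 to 11.10 in WT_resident. The Il10 transcript was at 10.75 in the Il10_KO array, against 11.04 in WT_CX3CR1hi. The position of its probes relative to the deletion is unknown here, and the level is no check of the label. The 10 resident macrophage markers, among them Csf1r, Adgre1 and C1qa, averaged 11.12 and 11.41 in Il10ra_mKO, against 11.30 to 11.49 in WT_resident. Of these 10, 3 were above and 3 below every WT_resident array in both Il10ra_mKO arrays, against 8.92% and 8.5% of all genes. The higher ones were Mertk (10.49 and 11.43, against 9.64 to 10.37), Fcgr1 (10.60 and 10.70, against 9.85 to 10.24) and, by little, C1qa (12.23 and 12.48, against 12.18 to 12.22). The lower ones were Mrc1 (11.25 and 11.84, against 12.26 to 12.42), Cx3cr1 (10.11 and 10.44, against 10.70 to 10.85) and Cd163 (6.32 and 6.04, against 6.64 to 8.9). Cx3cr1 is the locus that carries Cre in the mutants and GFP in the controls, so its RNA level cannot be separated from these alleles. The 8 epithelial markers, among them Epcam and Krt8, were bright as well, averaging 10.99 and 9.34 in Il10ra_mKO, against 10.71 to 11.17 in WT_resident.

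RefSeq promoter sequence (GRCm38.p6) was at hand for 3 of the 5 members, Il12a, Il12b and Ebi3. The 250 bases before the start are shown for Il12b, the shared p40 chain, which was among the genes with the larger differences, and for the upstream start of Il12a, its IL-12 partner, which was dim in every array. They are chr11:44399813-44400062 for Il12b and chr3:68690394-68690643 for Il12a, both on the plus strand. Capitals mark matches to 8 motifs searched on both strands. The motifs were NF-kB (GGG and CC with any 5 bases between them), a Rel half-site (GGAATTT), a C/EBP half-site (TTGCAA), AP-1 (TGANTCA), PU.1 (GAGGAA), the interferon-stimulated response element ISRE (GAAA repeated after any 2 bases), GAS (TTCNNNGAA) and TATA (TATANA), and they were chosen with the Il12b sequence in view.
Il12b: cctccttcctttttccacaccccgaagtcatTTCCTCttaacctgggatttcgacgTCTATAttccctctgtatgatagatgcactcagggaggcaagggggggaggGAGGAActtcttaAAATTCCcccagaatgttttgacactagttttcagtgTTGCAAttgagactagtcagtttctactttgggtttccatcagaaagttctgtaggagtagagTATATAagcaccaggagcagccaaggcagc
Il12a: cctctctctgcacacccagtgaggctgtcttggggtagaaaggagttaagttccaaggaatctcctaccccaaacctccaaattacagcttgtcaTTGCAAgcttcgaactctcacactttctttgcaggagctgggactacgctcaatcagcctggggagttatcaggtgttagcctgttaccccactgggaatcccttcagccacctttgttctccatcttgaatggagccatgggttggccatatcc

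In the Il12b promoter the Rel half-site began 130 bases before the start and the C/EBP half-site 93 bases before it. Over 32851 promoter windows of the same length, 3.43% held the Rel half-site and 5.34% the C/EBP half-site. PU.1 letters, held by 23.3% of windows, occurred 2 times in Il12b. TATA letters, held by 22.6% of windows, began 30 bases before the start, where the same 6 bases match on either strand, and again 194 bases before it. The upstream Il12a window held only the C/EBP half-site, 155 bases before the start. The other Il12a start and Ebi3 held overlapping matches to the NF-kB letters, which 45.8% of windows hold, and Ebi3 also held 1 PU.1 match. None of these 4 windows held the AP-1, ISRE or GAS letters, which 6.75%, 2.98% and 7.02% of all windows hold.

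In Il10ra_mKO, the IL-23 subunits Il23a and Il12b and the p28 subunit Il27 had higher RNA levels than in WT_resident. Il12a, the p35 partner of p40 in IL-12, stayed dim in every array. The question asked of this comparison is how resident colonic macrophages differ when Il10ra is targeted by Cre. Il10ra RNA was lower in Il10ra_mKO but not absent (log2 8.05 and 7.04), and the response of the cells to IL-10 was not measured. By limma, 0 of the 5 members passed at an adjusted p under 0.05, where 0.00502% of all genes passed. At an unadjusted p under 0.05, 4 of the 5 were higher against 4.06% of all genes, and with a difference of at least 2-fold besides, 3 were higher against 0.772%. Both Il10ra_mKO arrays lay above all WT_resident arrays for 4 of the 5 members, against 8.92% of all genes, and 0 of the 5 had both below, against 8.5%. The median log2 difference was 1.01 over the members and 0 over all genes tested. The members and the lists below were chosen with earlier results of these data known. The shares of all genes beside their counts are therefore a description and no independent test.

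**Figure D1:**
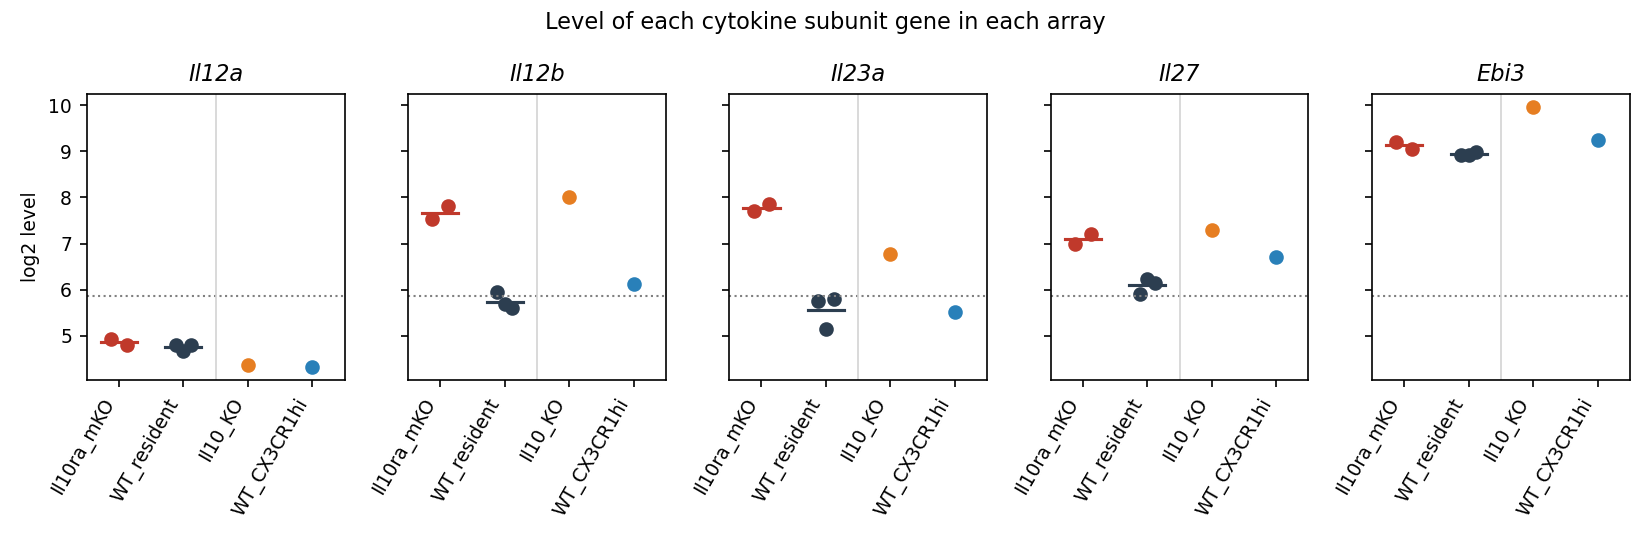
Log2 level (vertical axis) of each gene in each array, with points for arrays, short bars for group means where a group has several arrays, and a dotted line at log2 5.86, the median of all values in the table. Il12b and Il23a sit at 7.53 to 7.85 in the Il10ra_mKO arrays and at or under 5.95 in WT_resident, whereas Il12a lies under the dotted line in all 7 arrays.

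Il12b, the p40 chain shared by IL-12 and IL-23, was at log2 7.53 and 7.81 in the Il10ra_mKO arrays, against 5.95, 5.68 and 5.6 in WT_resident. Both mutant arrays lay above all controls, of which 2 were under log2 5.86, the median of all values in the table and here a mark of dim signal. The difference was 1.93 ± 0.15 (SE), or 3.80-fold with a 95% interval of 2.82 to 5.13, at an unadjusted p = 0.000292 and an adjusted p = 0.172 by limma. Of the 19938 genes, 47 had a larger upward difference.

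Il23a, the p19 chain that makes IL-23 with p40, was at 7.70 and 7.85 in Il10ra_mKO, against 5.75, 5.14 and 5.80 in WT_resident. The groups did not overlap, and all controls lay under the dim-signal mark. The difference was 2.21 ± 0.25 (SE), or 4.63-fold with a 95% interval of 2.84 to 7.53, at an unadjusted p = 0.00108 and an adjusted p = 0.243 by limma. A larger upward difference was seen for 31 of the 19938 genes.

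Il27, the p28 chain of IL-27, was at 7.00 and 7.20 in Il10ra_mKO, against 5.9, 6.23 and 6.15 in WT_resident. The groups did not overlap, and the difference of 1.01 ± 0.13 (SE) was 2.01-fold with a 95% interval of 1.55 to 2.61 (limma adjusted p = 0.258). Ebi3, the partner of p28, was at 9.20 and 9.06 in Il10ra_mKO, against 8.92, 8.91 and 8.98 in WT_resident. These arrays did not overlap either, but the difference of 0.20 ± 0.063 (SE) was 1.15-fold with a 95% interval of 1.01 to 1.30 (limma adjusted p = 0.579), and it was 0.13 on the log2 scale without Il10ra_mKO array 1.

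Il12a, the p35 chain, was at 4.93 and 4.80 in Il10ra_mKO, against 4.80, 4.67 and 4.80 in WT_resident. The groups overlapped and no array reached the dim-signal mark. The difference of 0.11 ± 0.065 (SE) was 1.08-fold with a 95% interval of 0.948 to 1.22 (limma adjusted p = 0.678). A change in p35 RNA below what this probe set can register would not show at this signal.

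The calls depended on the scaling of the arrays. With each array centred on its median, 3 members passed by limma, Il12b (adjusted p = 0.00914), Il23a (adjusted p = 0.0189) and Il27 (adjusted p = 0.0455), and with the arrays quantile normalized again, Il12b (adjusted p = 0.017) and Il23a (adjusted p = 0.0354) passed. The differences themselves were then 1.98 and 2.06 for Il12b, 2.26 and 2.38 for Il23a, and 1.06 and 1.11 for Il27. In the deposited values, 1220 genes (6.12%) had all 5 resident arrays within log2 0.01 of each other, and limma's prior on the variance carried 0.831 degrees of freedom, against 3.39 after centring and 2.68 after quantile normalization. Without those tied genes the prior was 1.77, and Il12b had an adjusted p = 0.0584.

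The label numbers of the resident arrays fall into runs of neighbouring numbers, 54 to 56 and 67 to 68. The first holds Il10ra_mKO array 1 with WT_resident arrays 1 and 2, and the second Il10ra_mKO array 2 with WT_resident array 3. Within them, Il10ra_mKO minus WT_resident was 1.72 and 2.21 for Il12b, 2.25 and 2.05 for Il23a, and 0.93 and 1.05 for Il27. It was 0.29 and 0.08 for Ebi3 and 0.19 and 0 for Il12a. The first 3 genes were thus higher in both runs, where the pooled differences were 1.93, 2.21 and 1.01. The small Ebi3 difference lay mostly in the earlier numbers. Each run rests on a lone mutant array.

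**Figure D2:**
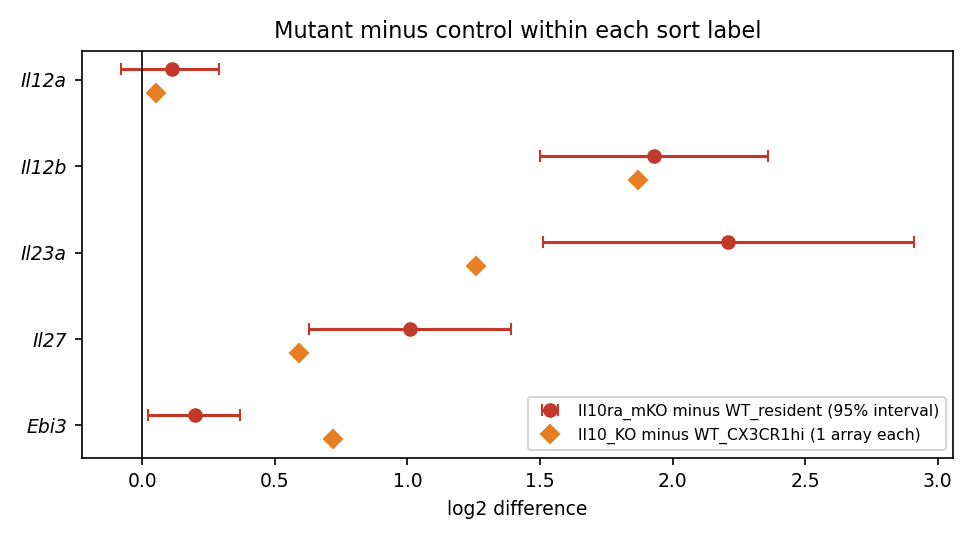
Log2 difference (horizontal axis) of each gene, mutant minus control, within each sort label. Circles with bars show Il10ra_mKO minus WT_resident with limma's 95% interval and diamonds show Il10_KO minus WT_CX3CR1hi from 1 array each. Il12b is near 1.9 by both, Il23a and Il27 are farther right in Il10ra_mKO, and Ebi3 is farther right in Il10_KO.

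The differences of partner chains were compared within the same arrays. Il27 minus Ebi3 was -2.2 to -1.86 in Il10ra_mKO, against -3.02 to -2.68 in WT_resident, so the Il27 difference exceeded that of Ebi3 by 0.81. The arrays of this pair did not overlap (exact permutation test, two-sided p = 0.1, adjusted p = 0.133 over 4 pairs), and p = 0.1 is the smallest that 10 arrangements can give. Il23a minus Il12b was 0.04 to 0.16 in Il10ra_mKO, against -0.55 to 0.20 in WT_resident, and these arrays overlapped (exact permutation p = 0.5). With no p under 0.05 possible, neither pair is shown to differ or to be alike. For the other pairs, Il12a with Il12b and Il12a with Il23a, no size is given because Il12a was under the dim-signal mark in all 7 arrays.

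In the Il10-deficient mice, the same pair of IL-23 genes was higher in CX3CR1hi macrophages, with Ebi3 next in size. Here there was 1 array a group, so these differences have no replicate check and no test of their own. Il12b was at 8.0 in Il10_KO, against 6.13 in WT_CX3CR1hi, a 3.65-fold difference. Il23a was at 6.77 in Il10_KO, against 5.51 in WT_CX3CR1hi, a 2.39-fold difference. These 2 members were at least 2-fold higher, against 0.692% of all genes, but after quantile normalization the Il23a difference was 0.91 on the log2 scale, under 2-fold.

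Ebi3 was at 9.97 in Il10_KO, against 9.25 in WT_CX3CR1hi (1.65-fold), and Il27 at 7.30, against 6.71 (1.5-fold). Il12a was at 4.37 in Il10_KO, against 4.32 in WT_CX3CR1hi, again under the dim-signal mark. All 5 members were thus higher in the Il10_KO array, as were 56.3% of all genes, and the median log2 difference was 0.72 over the members and 0.03 over all genes. Both Il12b and Il23a were at least 2-fold higher in either mutant, which held for 0.451% of all genes, and for Il23a not after quantile normalization. The 2 comparisons share no control array.

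**Figure D3:**
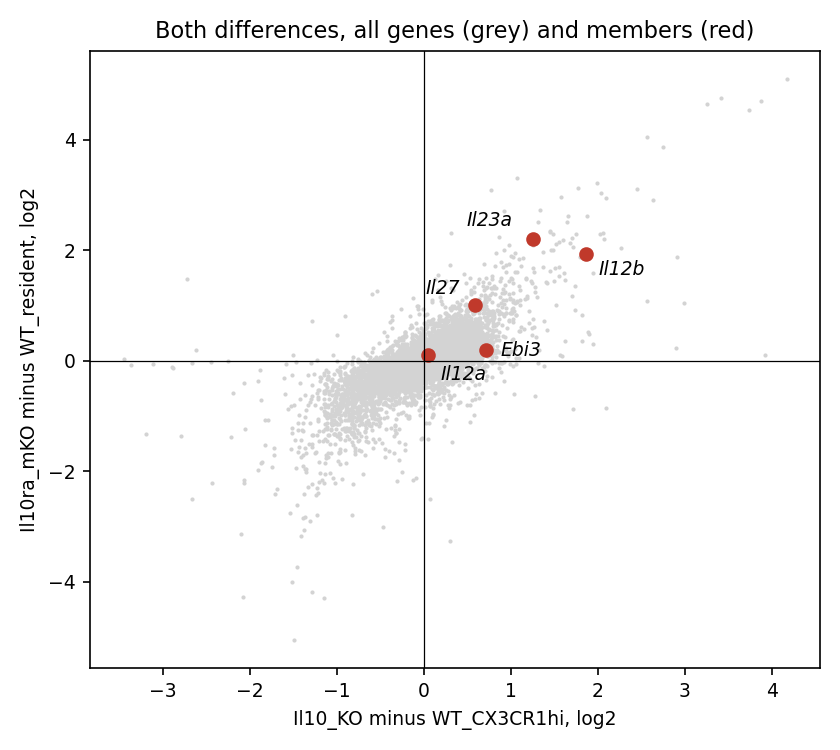
Log2 difference Il10_KO minus WT_CX3CR1hi (horizontal axis) against Il10ra_mKO minus WT_resident (vertical axis) for the 19938 genes in grey and the 5 members in red. Il12b (1.87 and 1.93) and Il23a (1.26 and 2.21) lie to the upper right of the dense cloud with other genes beyond them, and Il12a (0.05 and 0.11) lies at its centre.

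Whether the size of a member's difference depended on the mutant was tested as a contrast in limma, in which the single CX3CR1hi arrays are assumed to vary like the others, so its errors rest on the spread of the resident arrays. The Il10ra_mKO difference minus the Il10_KO difference was 0.06 ± 0.28 (SE) for Il12b, with a 95% interval of -0.74 to 0.85 (adjusted p = 0.989). It was 0.95 ± 0.46 for Il23a, with an interval of -0.34 to 2.25 (adjusted p = 0.489), and 0.42 ± 0.25 for Il27 (adjusted p = 0.603). For Ebi3 it was -0.53 ± 0.12 (unadjusted p = 0.0116, limma adjusted p = 0.132). No member passed, where 4.70% of all genes did, and 1 of 5 had an unadjusted p under 0.05 against 15.8% of all genes. The share of all genes is unstable, since the 937 genes behind it became 1 with the brightness filter, 8 after quantile normalization, 0 without WT_resident array 2 and 2200 without Il10ra_mKO array 2.

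Across the 7 arrays, the level of Il12b was highest in Il10_KO (8.0), next in the Il10ra_mKO arrays and lowest in the 4 controls (5.6 to 6.13). Il23a was highest in the Il10ra_mKO arrays, then in Il10_KO, then in the 4 controls (5.14 to 5.80). Il27 was highest in Il10_KO (7.30), with Il10ra_mKO array 2 (7.20) close to it, and WT_CX3CR1hi (6.71) lay between the mutants and WT_resident. For Ebi3, WT_CX3CR1hi (9.25) lay above both Il10ra_mKO arrays, so its order followed the sort label as well as the genotype. The extraction protocol gives one RNA kit for samples 1 and 2 and another for samples 3 to 7, so kit and sort label cannot be told apart as far as that numbering follows the series, and levels are best compared within a sort label.

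The genes whose levels followed each member most closely were ranked by Pearson r over the 7 arrays among 10558 genes that exceeded log2 5.86 in at least 2 arrays. For Il12b they were Uba7 (r = 0.997), which activates the ubiquitin-like protein ISG15, the cation channel gene Trpm2 (0.990) and the cytokine receptor gene Crlf2 (0.989). Trpm2 was higher by log2 2.0 in Il10ra_mKO than in WT_resident, and by 1.46 in Il10_KO than in WT_CX3CR1hi. For Il23a they were Parp10 (0.995), the guanylate-binding protein gene Gbp11 (0.989) and Ccl5 (0.984), a T-cell attracting chemokine. Ccl5 was at 12.66 and 12.09 in Il10ra_mKO, against 9.08 to 9.62 in WT_resident.

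For Il27 the closest were Gsdmd (r = 0.984), the pore-forming protein of pyroptosis, Myof (0.982) and Il15ra (0.982), the receptor chain that presents IL-15. For Ebi3 they were Ap1g2 (0.995), Zfp414 (0.991) and Pxn (0.991), and for Il12a Gm16381 (0.981), Lce1c (0.980) and Rbm15 (0.975). The last list follows the sort label, since Gm16381 was at 6.87 to 7.41 in all resident arrays and at 4.97 and 5.08 in the CX3CR1hi ones. Among the members, r with Il12b was 0.92 for Il27, 0.88 for Il23a, 0.67 for Ebi3 and -0.05 for Il12a. These 7 points share groups, sort and kit, and the values are a description.

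Of the receptors for these cytokines, Il12rb1, the chain shared by the IL-12 and IL-23 receptors, differed most. It was at 7.04 and 6.92 in Il10ra_mKO, against 5.71, 5.29 and 5.56 in WT_resident, a difference of 1.46 ± 0.15 (SE), or 2.74-fold (limma adjusted p = 0.219). In Il10_KO it was at 7.19, against 5.58 in WT_CX3CR1hi. It passed by limma with the arrays centred (adjusted p = 0.0131) or quantile normalized again (adjusted p = 0.0248). Its control arrays of both sort labels all lay under the dim-signal mark, which limits what the fold can show.

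The specific chains Il12rb2, Il23r and Il27ra lay under log2 5.86 in all 7 arrays. Il12rb2 was at 5.27 and 5.6 in Il10ra_mKO, against 5.10 to 5.27 in WT_resident, and Il23r was at 4.75 in all 5 resident arrays. Il6st, the gp130 chain that IL-27 uses with Il27ra, was at 9.67 and 10.23 in Il10ra_mKO, against 10.23 to 10.46 in WT_resident. Among the 5 receptor genes 0 passed over all genes by limma. At an unadjusted p under 0.05 with at least 2-fold, 1 was higher, against 0.772% of all genes.

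**Figure D4:**
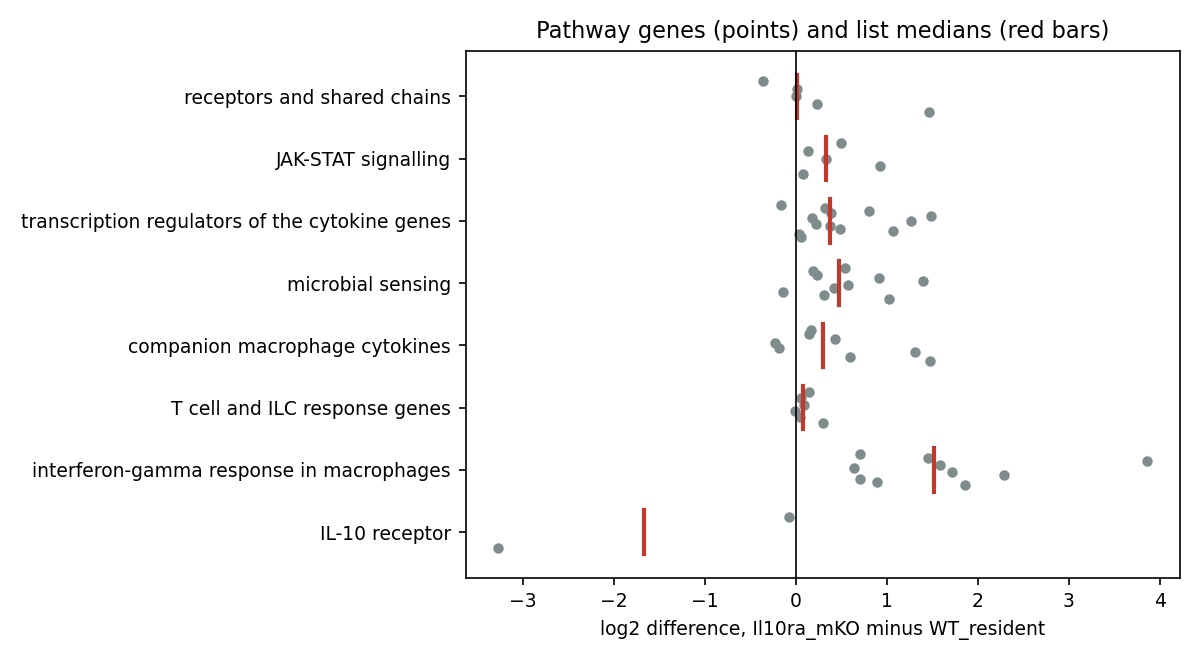
Log2 difference Il10ra_mKO minus WT_resident (horizontal axis) for each measured gene of 8 pathway lists, with points for genes and red bars for list medians. The interferon-gamma response genes have a median of 1.52 with all points right of 0, while the receptor and T cell lists have medians of 0.01 and 0.07.

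Downstream of the receptors, Jak2, a kinase of IL-12 and IL-23 signalling, was at 9.60 in both Il10ra_mKO arrays, against 8.27 to 9.16 in WT_resident (0.92 ± 0.30, SE, limma adjusted p = 0.585). Its partner kinase Tyk2 differed by 0.33 ± 0.15 (SE), Stat4, which IL-12 activates, by 0.50 ± 0.45, and Stat3, which IL-23 and IL-10 both activate, by 0.13 ± 0.11. Single arrays decided some of these sizes, as Tyk2 was at 0.53 and 0.12 without Il10ra_mKO array 1 and array 2, and Stat4 at 0.92 and 0.08, and at 0.32 and 0.81 without WT_resident array 2 and array 3. None of the 5 measured genes of this list passed by limma (1 was higher at an unadjusted p under 0.05, against 4.06% of all genes).

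Among 13 measured regulators of the cytokine genes, a list not split into activators and repressors, 12 were higher and 0 passed by limma. The median difference was 0.38, against 0 over all genes. In both Il10ra_mKO arrays, 6 of the 13 were above every WT_resident array, against 8.92% of all genes. At an unadjusted p under 0.05, 4 of the 13 were higher, against 4.06% of all genes. Irf1, an interferon-induced activator, was at 11.79 and 11.37 in Il10ra_mKO, against 10.27 to 10.84 in WT_resident (1.07 ± 0.24, SE), and its difference was 0.61 with all its probe sets averaged. Cebpb, a C/EBP factor, was at 9.44 and 9.22 in Il10ra_mKO, against 7.33 to 8.48 in WT_resident (1.27 ± 0.42). Irf5, an activator of inflammatory cytokine genes, differed by 0.49 ± 0.13, and Nfkbid, an atypical IkB protein, by 0.80 ± 0.28. The largest difference of the list was that of Nfil3, at 9.85 and 9.52 in Il10ra_mKO, against 7.33 to 9.09 in WT_resident (1.49 ± 0.59, limma unadjusted p = 0.0691).

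Microbial sensing genes had a median difference of 0.48 over 10 measured genes, against 0 over all genes. Of these 10, 9 were higher and 0 passed by limma. At an unadjusted p under 0.05, 4 of the 10 were higher, against 4.06% of all genes. Nod1, a sensor of bacterial peptidoglycan, was at 9.23 and 9.41 in Il10ra_mKO, against 7.79 to 8.07 in WT_resident (1.40 ± 0.11, SE, adjusted p = 0.186). The other sensor genes nearest the threshold were Nod2 (0.91 ± 0.20), Tlr2 (1.02 ± 0.25) and the adaptor gene Traf6 (0.54 ± 0.15). Of 8 companion cytokines, 6 were higher and 0 passed by limma. Only Il1a, at 1.47 ± 0.39, was higher at an unadjusted p under 0.05, against 4.06% of all genes. Il6 was at 7.03 and 5.67 in Il10ra_mKO, against 4.89 to 5.37 in WT_resident (1.31 ± 0.49, or 0.62 and 1.99 without Il10ra_mKO array 1 and array 2), Il1b differed by 0.60 ± 0.31 and Il15 by -0.18 ± 0.10.

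The genes that IL-12 and IL-23 switch on in T cells and ILC were near the floor. All 6 measured genes of this list, among them Ifng, Il17a, Il17f and Csf2, lay under log2 5.86 in all 7 arrays, and their median difference was 0.07. Ifng was at 5.70 and 5.23 in Il10ra_mKO, against 5.09 to 5.23 in WT_resident. Tbx21, the T-bet factor of type 1 responses, differed by 0.14 ± 0.033 (SE), Il21 by 0.09 ± 0.064 and Il17a by 0.05 ± 0.048. By limma 0 of the 6 passed, and 1 (Tbx21) was higher at an unadjusted p under 0.05, against 4.06% of all genes.

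Genes that interferon-gamma induces in macrophages had higher levels in Il10ra_mKO. All 10 measured genes were above every WT_resident array in both Il10ra_mKO arrays, against 8.92% of all genes, with a median difference of 1.52. These genes, like the other lists, were chosen with earlier results of these data known. By limma 0 passed over all genes, while 8 were higher at an unadjusted p under 0.05, against 4.06% of all genes. Gbp5, a guanylate-binding protein, was at 10.17 and 9.85 in Il10ra_mKO, against 7.34 to 8.04 in WT_resident (2.29 ± 0.26, SE). The chemokine gene Cxcl9 differed by 1.86 ± 0.25, the GTPase gene Irgm1 by 1.72 ± 0.18 and Socs1, a feedback inhibitor, by 0.71 ± 0.030. Socs1 lay under the dim-signal mark in all 7 arrays (5.63 and 5.58 in Il10ra_mKO, against 4.86 to 4.93 in WT_resident), which limits what its size and small SE can show. In Il10_KO against WT_CX3CR1hi, all 10 were higher as well, against 56.3% of all genes, and 5 were at least 2-fold higher, against 0.692%.

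Several dendritic cell markers were higher in the same arrays as these cytokine genes. In both Il10ra_mKO arrays, 5 of 9 were above and 2 of 9 below every WT_resident array, against 8.92% and 8.5% of all genes. The 9 dendritic cell markers averaged 6.85 and 7.15 in Il10ra_mKO, against 6.37 to 6.61 in WT_resident, and 6.5 in Il10_KO, against 6.20 in WT_CX3CR1hi. In the Il10_KO array only 5 of the 9 were higher, where 56.3% of all genes were. By at least 2-fold, 2 were higher and 1 was lower, against 0.692% and 1.22% of all genes. Ccr7, the receptor of migrating dendritic cells, was at 9.57 and 9.92 in Il10ra_mKO, against 6.64 to 8.07 in WT_resident, and at 8.44 in Il10_KO, against 6.38 in WT_CX3CR1hi. Clec9a, a dead-cell receptor found on the cross-presenting subset, was at 8.58 and 9.32 in Il10ra_mKO, against 5.65 to 6.34 in WT_resident, and at 8.44 in Il10_KO, against 5.80 in WT_CX3CR1hi. Zbtb46 and Flt3, which define the dendritic lineage, were under log2 5.86 in all arrays. Zbtb46 was at 4.73 in all 5 resident arrays, so its probe set registered no difference there. Flt3, one of the 5 markers above every control, was at 5.50 and 5.79 in Il10ra_mKO, against 5.22 to 5.46 in WT_resident. Cd209a was lower in Il10ra_mKO (6.47 and 7.16) than in WT_resident (8.63 to 9.65). It was at 5.69 in Il10_KO, against 8.12 in WT_CX3CR1hi. The part of such cells in the Il12b and Il23a differences was not tested.

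**Figure D5:**
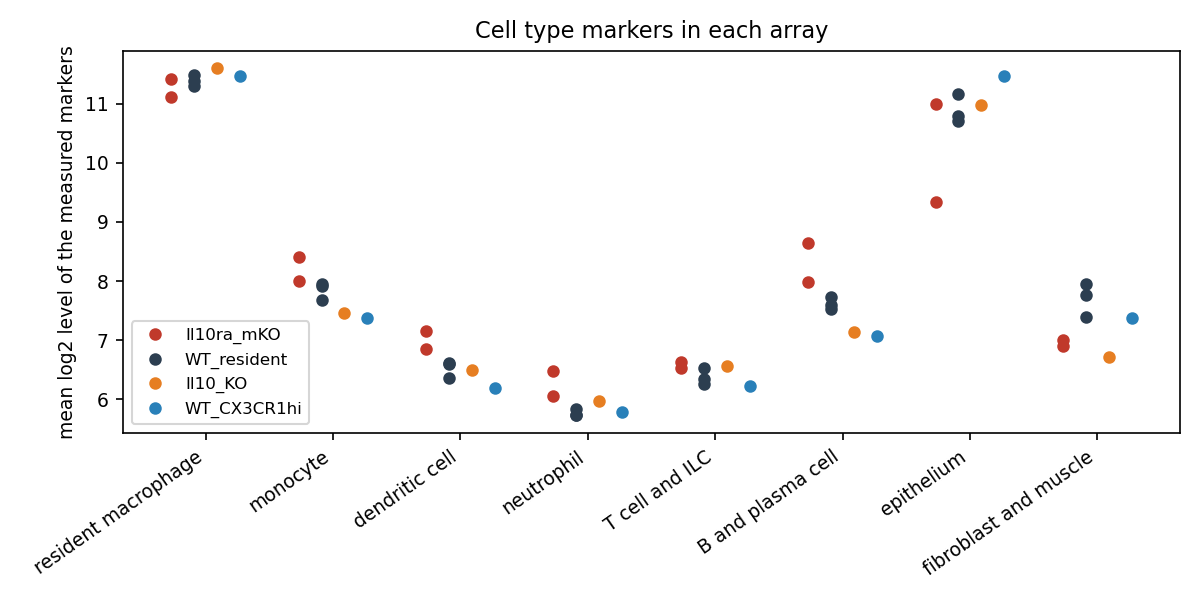
Mean log2 level (vertical axis) of the measured markers of each cell type in each array, coloured by group. Monocyte, dendritic cell, neutrophil and B and plasma cell means are higher in both Il10ra_mKO arrays than in WT_resident, and the epithelial mean is 9.34 in Il10ra_mKO array 2 against 10.71 or more in WT_resident.

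Markers of other cells varied between arrays too. Monocyte markers averaged 8.41 and 8.01 in Il10ra_mKO, against 7.68 to 7.95 in WT_resident, but of the 6 measured markers 3 were higher and 3 lower, with a median difference of 0.03. F10 was at 9.18 and 8.84 in Il10ra_mKO, against 5.65 to 6.17 in WT_resident, whereas Fn1 was at 8.75 and 8.26, against 9.72 to 10.22, and Vcan at 5.42 and 5.29, against 5.47 to 5.71. Neutrophil markers averaged 6.48 and 6.06 in Il10ra_mKO, against 5.73 to 5.84 in WT_resident. All 8 had a higher mean, and 5 of the 8 were above every WT_resident array in both Il10ra_mKO arrays, against 8.92% of all genes. Csf3r was at 9.60 and 10.01, against 8.33 to 8.98, and Ly6g at 9.70 and 8.10, against 6.95 to 8.17. Another 4 of the 8, among them Mpo (4.71 and 4.73, against 4.65 to 4.70), lay under log2 5.86 in all 7 arrays. B and plasma cell markers averaged 7.98 and 8.64 in Il10ra_mKO, against 7.53 to 7.73 in WT_resident. Of these 5, 3 were above and 1 below every WT_resident array in both Il10ra_mKO arrays, against 8.92% and 8.5% of all genes. Ms4a1 was at 6.72 and 8.16, against 5.70 to 6.19, and Jchain at 11.36 and 11.46, against 11.55 to 11.60. T cell and ILC markers averaged 6.54 and 6.64, against 6.26 to 6.54. Of these 7, 4 lay under log2 5.86 in all 7 arrays. The brightest were Cd4 (10.36 and 10.87, against 10.38 to 10.88) and Il7r (8.21 and 9.83, against 7.98 to 9.93). Fibroblast and muscle markers averaged 7.00 and 6.90 in Il10ra_mKO, against 7.40 to 7.95 in WT_resident. Epithelial markers averaged 10.99 and 9.34 in Il10ra_mKO, against 10.71 to 11.17 in WT_resident. The part of these cells in the Il12b and Il23a differences was not tested.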

How the data were processed

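Total RNA of 7 sorted macrophage samples was hybridised to Affymetrix arrays. The authors deposited log2 values (3.55 to 14.78, 0 missing). RMA and Partek are named in the submitters' processing notes, with versions, roles and genome build not given in the sources used here. RMA compresses low values, and the number of arrays limits precision. Array quartiles were alike within a sort label. Of 35399 rows, 21789 have 1 gene symbol in the platform annotation, 1621 several and 11989 none, and 21698 of the first matched RefSeq (GRCm38.p6) by gene ID, with 0 symbols changed. The brightest row per gene left 19938 genes. Replicate numbers follow accession order and pair nothing. Group means were fitted to all 7 arrays with limma 3.58.1 in R 4.3.3 (lmFit, eBayes with trend, 3 residual degrees of freedom), two-sided, with Benjamini-Hochberg adjustment over all genes and a threshold of 0.05. The fit was also run on simulated data in which the spread of every gene was kept above a floor. Ties like those of the deposited values, and their effect on the calls, were therefore not tested by it. Alternatives were the mean of all rows of a gene, a brightness filter, no trend, the resident arrays alone, renewed quantile normalization, median centring, the label number run as a block, each array left out and, chosen after seeing the data, tied genes left out. The members, lists, tests and motifs were chosen with earlier results of these data known. Named were the members, the receptor lists, 4 genes with the smallest p of each other pathway list, and 3 genes most like each member. Trpm2, Ccl5 and Gm16381 levels, single marker genes and further list genes were named after their values were seen.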

Additional observations from a re-analysis of the deposited data

How the results depend on the processing

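Over 64 recomputations of the 5 Il10ra_mKO differences, 0 changed direction, 59 stayed on the same side of the limma threshold and 5 passed it. With each array centred on its median, Il12b (1.98), Il23a (2.26) and Il27 (1.06) passed, 3 members in all, and with quantile normalization of the 7 arrays Il12b (2.06) and Il23a (2.38) passed, 2 members in all. The genes called over all numbered 1 as reported, 146 after centring, 114 after quantile normalization, 12 with the brightness filter, 4 without the eBayes trend, 18 without the genes tied in the resident arrays (an alternative chosen after seeing the data), 0 with the label number run as a block and 0 without any single WT_resident array. Without Il10ra_mKO array 1 or 2 they numbered 266 and 267, from fits in which the lone mutant array is assumed to vary like the other groups, and 0 members passed.

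With 1 array left out in turn, the Il10ra_mKO difference was 1.79 to 2.07 for Il12b, 2.00 to 2.33 for Il23a, 0.91 to 1.11 for Il27, 0.13 to 0.26 for Ebi3 and 0.04 to 0.17 for Il12a. The difference of both mutant effects was then -0.08 to 0.20 for Il12b (-0.01 without WT_resident array 3 and -0.08 without Il10ra_mKO array 2) and -0.01 to 0.12 for Il12a (-0.01 without Il10ra_mKO array 1). The Il10rb difference was 0.22 without Il10ra_mKO array 1 and -0.37 without array 2, against -0.07 with all arrays. For the difference of both mutant effects, 937 genes passed as reported, 1 with the brightness filter, 30 without the trend, 8 after quantile normalization, 17 after centring, 10 without the tied genes, 0 without WT_resident array 2, 402 without WT_resident array 3, and 1829 and 2200 without Il10ra_mKO array 1 and array 2. For Il10_KO minus WT_CX3CR1hi, quantile normalization gave 1.67 for Il12b and 0.91, under 2-fold, for Il23a, and centring gave 0.77 for Ebi3. Il12a has no value with the brightness filter, which it does not pass. No paired analysis was possible because the labels give the groups no shared replicate numbers, but the runs of label numbers could be fitted as a fixed block and gave 1.93 for Il12b (adjusted p = 0.215), 2.17 for Il23a (adjusted p = 0.224) and 0.99 for Il27 (adjusted p = 0.244) by limma. Without Il10ra_mKO array 1 and array 2, Il6st was at -0.08 and -0.64, Il12rb2 at 0.40 and 0.07, and Ifng at 0.07 and 0.53. Signals near the floor (Il12a, Socs1, and Il12b, Il23a and Il12rb1 in the controls) limit what a fold can show.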
